A study of Mus musculus with 6 samples.

Results

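Ephrins and their Eph receptors were followed through a comparison of embryonic mouse hearts with and without Scleraxis (Scx), a basic helix-loop-helix transcription factor of tendons and heart valves. The members are a list of 10 genes, the ligands Efna1, Efna5, Efnb1 and Efnb2 and the receptors Epha3, Epha4, Epha7, Ephb2, Ephb3 and Ephb4. They were found by symbol, and 9 of them are held in the deposited table, under 10 of its 18810 entries, because Efna5 has a pair of overlapping identifiers. Ephb2 was not analysed here. The table compares 3 Scx-/- with 3 Scx+/+ embryos at embryonic day 15.5, all labelled C57BL/6, and the Scx-/- embryos carry the null allele in every cell. The wild-type embryos are littermates by the study's methods, which do not tie an embryo to a litter. RNA came from the dissected atrioventricular canal region with the mitral, tricuspid and aortic valves, without sorting of cells, so that valve mesenchyme, endothelium and some myocardium contribute to each value. In such bulk RNA, fewer cells of a type and less RNA per cell cannot be told apart.

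Eph receptors are the largest family of receptor tyrosine kinases, and their ligands, the ephrins, are themselves bound to the membrane of the neighbouring cell. Ephrin-A ligands hang on a lipid anchor and mostly bind EphA receptors, whereas ephrin-B ligands span the membrane and mostly bind EphB receptors. Contact between 2 cells can signal in both directions and usually ends in repulsion or in the sorting of cells at a boundary. In the heart, ephrin-B2 and EphB4 mark arterial and venous endothelium, and loss of ephrin-A1 or EphA3 in mice disturbs the atrioventricular cushions and valves.

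The promoters of Efna5 and Efnb2, the members that passed the test below, and of Ephb4, the main receptor of ephrin-B2, are shown because Scx binds DNA at E-boxes. They are RefSeq windows of 300 bases on GRCm38.p6, from 250 bases before the transcription start to 50 after it, written 5′ to 3′ on the strand of the gene, with each E-box in capitals. Efna5 lies at chr17:62881268-62881567 on the minus strand, Efnb2 at chr8:8661193-8661492 on the minus strand and Ephb4 at chr5:137349859-137350158 on the plus strand.
Efna5: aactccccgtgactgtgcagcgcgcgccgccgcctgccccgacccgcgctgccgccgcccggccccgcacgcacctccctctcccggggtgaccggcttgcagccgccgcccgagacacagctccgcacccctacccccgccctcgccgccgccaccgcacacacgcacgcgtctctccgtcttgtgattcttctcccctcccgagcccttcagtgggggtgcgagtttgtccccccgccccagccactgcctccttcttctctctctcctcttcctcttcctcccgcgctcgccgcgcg
Efnb2: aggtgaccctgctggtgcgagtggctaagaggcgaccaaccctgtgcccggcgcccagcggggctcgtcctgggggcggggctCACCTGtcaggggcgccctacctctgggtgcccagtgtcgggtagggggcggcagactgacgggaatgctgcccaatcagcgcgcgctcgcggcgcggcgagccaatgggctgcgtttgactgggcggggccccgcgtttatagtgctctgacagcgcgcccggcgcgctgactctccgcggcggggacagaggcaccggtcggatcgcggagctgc
Ephb4: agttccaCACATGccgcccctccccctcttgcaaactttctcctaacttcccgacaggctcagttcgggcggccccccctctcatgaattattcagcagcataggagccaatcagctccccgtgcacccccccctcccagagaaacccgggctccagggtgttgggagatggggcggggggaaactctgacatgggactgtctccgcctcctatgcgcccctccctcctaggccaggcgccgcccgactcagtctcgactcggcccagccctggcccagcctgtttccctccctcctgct
The E-box was searched as CANNTG, which reads the same on both strands. Efna5 has 0 E-boxes in this window, and Efnb2 and Ephb4 have 1 each. All 10 listed genes matched a RefSeq promoter, and 4 of their 12 windows hold the motif, against 72.3% of all 32851 promoters. Efna1 and Epha7 have more than 1 window each, all without the motif, and those of Epha7 overlap. The 4 include that of Ephb2, whose levels were not analysed. The 12 windows are rich in G and C, from 59.7% to 73.3%, where the median of all promoters is 52.7%. A match is a description of these letters and not a binding site.

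Levels are RPKM, reads scaled to the exon length of the gene and to the depth of the library, and are listed for the embryos of a genotype in the order of their replicate numbers. They were tested as log2(RPKM + 0.1) with limma, which pools the spread across genes. A fold change on that scale understates the change of low genes. The depth was 46429972 to 68570997 reads per library, and the members rested on 57 to 6845 reads per library, with no value at the fill-in value of the table. Over the whole gene, Scx itself had a log2 fold change of 0.07 ± 0.51 (SE, limma, adjusted p = 0.996) and does not check the genotype labels. The study checked its samples before sequencing and reports a large decrease of Scx exon 1 in Scx-/-. Scx+/+ replicate 2 stood apart, since its 10 most abundant genes took 56.9% of its RPKM sum against 30.7% to 43.9% in the other libraries. Most genes leaned upward in Scx-/-, with a median log2 fold change of 0.10 over the table.

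In Scx-/-, 2 ephrin ligands were lower and no member was higher at an unadjusted p below 0.05. Efna5 fell by 45.0% on the ratio of mean RPKM and Efnb2 by 27.8%, and in both genes every Scx-/- library lay below every Scx+/+ library. None of the members, nor any other of the 18810 genes, was at an adjusted p below 0.05 with limma. Counted by entry, 3 of 10 were called, all of them lower, and the pair of Efna5 entries share their reads. Over all 18810 genes, 731 were called, 3.89% of the table, of which 200 were lower (1.06%) and 531 higher (2.82%). With the median of each library set to 0, 646 genes were called (3.43%), of which 365 were lower (1.94%) and 281 higher (1.49%), and the same 3 entries were called. The genotypes did not overlap in 3 of the 10 entries, where the share over all genes is 9.50%, or 2.31% with Scx-/- lower. The median log2 fold change of the 10 entries was -0.11, and 7 of them were below 0, against 36.2% of all genes. Both overlapping Efna5 entries are in these counts. With the median of each library set to 0, 50.6% of all genes were below 0, and so was every member but Epha3.

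**Figure D1:**
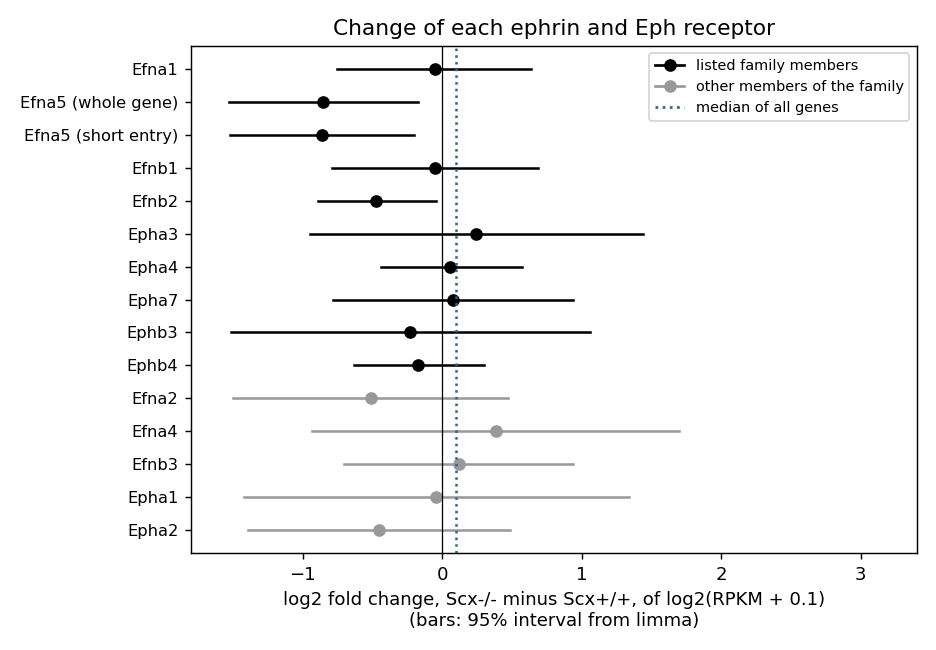
Log2 fold change of each family member, Scx-/- minus Scx+/+, on the log2(RPKM + 0.1) scale, with bars for the 95% interval from limma and a dotted line at the median of all genes (0.10). The intervals of the Efna5 entries and of Efnb2 lie below 0, and those of the other listed members and of the 5 further members in grey span it.

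In Scx+/+ libraries, the mean level per length was 8.09 ± 0.369 RPKM (SD, n = 3) for Efnb2. Epha7, Efna1, Ephb4 and Epha4 had mean levels of 7.44, 6.61, 5.79 and 5.39 RPKM. Efna5 stood at 3.95 RPKM, Efnb1 at 2.41, Epha3 at 1.86 and Ephb3, the lowest, at 0.531. Efnb2 was above Epha7 in only 1 of the 3 libraries, Scx+/+ replicate 2, and without that library Epha7 averaged 9.23 RPKM and Efnb2 8.09 RPKM. Between neighbours in this order of means, only Efna5 and Efnb1 had ranges that did not overlap. In Scx-/- the order ran Epha7, Efna1, Efnb2, Epha4, Ephb4, Efnb1, Epha3, Efna5 and Ephb3, with ranges apart only between Ephb4 and Efnb1 and between Efna5 and Ephb3.

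**Figure D2:**
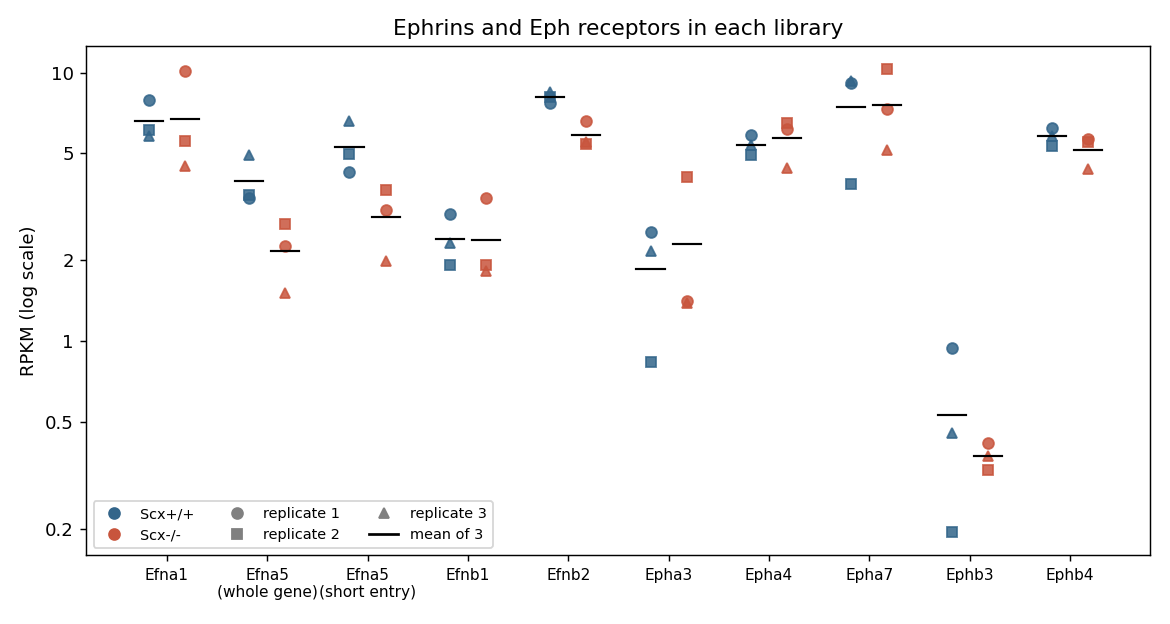
RPKM of each member entry in the 6 libraries on a log axis, with 1 point per library, the marker giving the replicate number and the bar the mean of 3. Efna5 and Efnb2 separate by genotype, and Epha3, Epha7 and Ephb3 spread within a genotype over more than they differ between genotypes.

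Efna5 encodes ephrin-A5, a lipid-anchored ligand of axon guidance and of cell adhesion. The gene (ENSMUSG00000048915, mm9 chromosome 17, 62953533 to 63230666, minus strand) has 4032 nt of exon in 5 exons. In Scx-/- it reached 2.27, 2.74 and 1.52 RPKM, and in Scx+/+ it reached 3.41, 3.50 and 4.95 RPKM. The lowest value was in Scx-/- replicate 3, the highest in Scx+/+ replicate 3, and the genotypes did not overlap. The log2 fold change was -0.85 ± 0.30 (SE, 95% interval -1.53 to -0.17), with an unadjusted p of 0.0193 and an adjusted p of 0.967 from limma. From 366 to 1369 reads per library, counting error was at most 5.23%, while the coefficient of variation between replicates was 28.2% in Scx-/- and 21.9% in Scx+/+.

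The direction held when any 1 library was omitted, at -1.03 to -0.62 on the log2 scale. The p did not pass the threshold without Scx-/- replicate 3 (a p of 0.0651 from limma) or without Scx+/+ replicate 3 (a p of 0.0884 from limma), the libraries with the extreme values. Without Scx+/+ replicate 2, the library that stood apart, the fold change was -0.93 with a p of 0.0308 from limma.

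The other Efna5 identifier, ENSMUSG00000090425, is a single exon of 2416 nt from 62953641 to 62956056 on the same strand. It lies wholly inside the last exon of the gene, within its 3′ UTR (62953533 to 62956693, 3161 nt), and so is not a separate measurement of the gene. Libraries of Scx-/- held 3.08, 3.65 and 1.99 RPKM, and those of Scx+/+ 4.28, 4.99 and 6.59 RPKM. The genotypes did not overlap here either, and the log2 fold change was -0.86 ± 0.29 (SE, limma, adjusted p = 0.967).

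The difference between the entries gives the other 1616 nt of Efna5 exon sequence, which hold the 684 nt of coding sequence and 745 nt of the same 3′ UTR, if reads of the shared stretch were counted for both. The sources used here do not state how such reads were counted. On that basis the stretch of the short entry held 75.1% to 85.5% of the Efna5 reads, with a mean of 79.8% in Scx-/- and 80.1% in Scx+/+. Over the rest of the exon sequence the Scx-/- embryos had 1.06, 1.38 and 0.818 RPKM, and the Scx+/+ embryos 2.12, 1.27 and 2.50 RPKM. Outside the short entry the genotypes thus overlapped, because Scx+/+ replicate 2 fell below Scx-/- replicate 2. The difference was -0.77 on the log2 scale (exact permutation test, two-sided, p = 0.2, where 0.1 is the smallest possible), from 79 to 277 reads per library. Without Scx+/+ replicate 2 it was -1.05, with no overlap, and over the omission of each library it ran from -1.05 to -0.58.

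**Figure D3:**
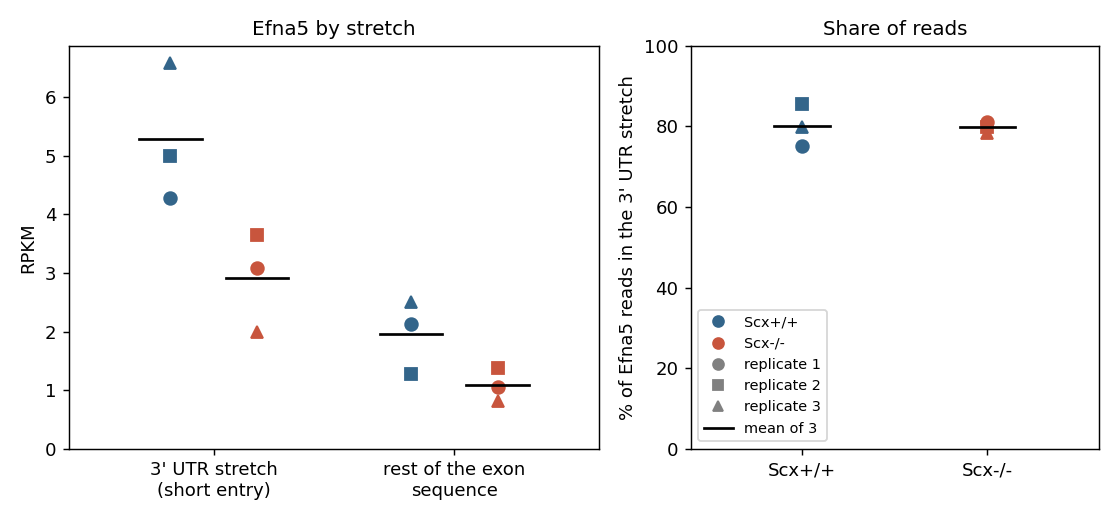
Left, RPKM of the 3′ UTR stretch of Efna5 held by the short entry and of the rest of its exon sequence in each library; right, the percentage of Efna5 reads in that stretch, both with 1 point per library and a bar at the mean of 3. The genotypes are apart in the 3′ UTR stretch and overlap in the rest, and the highest share, 85.5%, is that of Scx+/+ replicate 2.

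Efna1 encodes ephrin-A1, the other ephrin-A ligand of the list (ENSMUSG00000027954, chromosome 3 from 89075655 to 89085064 on the minus strand). Its Scx-/- values were 10.1, 5.55 and 4.48 RPKM, and its Scx+/+ values 7.88, 6.12 and 5.83 RPKM. Replicate 1 was the highest of each genotype, and the Scx+/+ values all lay inside the Scx-/- range. The log2 fold change was -0.05 ± 0.31 (SE, 95% interval -0.75 to 0.64, limma, adjusted p = 0.996).

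Efnb2 encodes ephrin-B2, the transmembrane ligand of arterial endothelium, which vessel growth requires. The gene (ENSMUSG00000001300, mm9 chromosome 8, 8617434 to 8661239, minus strand) has 4790 nt of exon. Null embryos had 6.58, 5.41 and 5.53 RPKM, and wild-type embryos 7.72, 8.09 and 8.45 RPKM. All 3 Scx-/- libraries were low and the genotypes were apart by more than 1 RPKM, with coefficients of variation of 11.1% in Scx-/- and 4.56% in Scx+/+. The log2 fold change was -0.47 ± 0.19 (SE, 95% interval -0.89 to -0.04), with an unadjusted p of 0.0342 and an adjusted p of 0.967 from limma.

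The Efnb2 fold change ranged over -0.56 to -0.42 when any 1 library was omitted. It was not past the threshold without Scx-/- replicate 2, Scx-/- replicate 3 or Scx+/+ replicate 3, where the p was 0.0590, 0.0547 and 0.0520 from limma, nor with the sex of the libraries as a term (a p of 0.0556 from limma). The call was also lost with the replicate number as a term. By Xist and Y-linked genes, replicate 2 of each genotype was female and the other libraries male.

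Efnb1 encodes ephrin-B1, a ligand of skull and neural crest patterning, from the X chromosome (ENSMUSG00000031217, 96331469 to 96344330 on the plus strand). In Scx-/- it reached 3.41, 1.92 and 1.82 RPKM, and in Scx+/+ it reached 2.97, 1.92 and 2.33 RPKM. The female libraries of both genotypes had the same level, 1.92 RPKM, and the 4 male libraries ranged around it from 1.82 to 3.41 RPKM. The log2 fold change was -0.05 ± 0.33 (SE, limma, adjusted p = 0.996), with a 95% interval from -0.79 to 0.69.

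The 3 EphA receptors showed no difference beyond the spread between libraries, with log2 fold changes of 0.24 for Epha3, 0.06 for Epha4 and 0.08 for Epha7. Epha3, a receptor of cushion mesenchyme (ENSMUSG00000052504, chromosome 16 from 63543364 to 63863984), stood at 1.41, 4.08 and 1.39 RPKM in the Scx-/- embryos, against 2.56, 0.837 and 2.17 RPKM in the wild type. Scx-/- replicate 2 was the highest and Scx+/+ replicate 2 the lowest library, and they differed by a factor of 4.87. The 95% interval of its fold change, from -0.95 to 1.44 on the log2 scale, was among the widest of the members.

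Epha7, a receptor of axon guidance, had the highest mean of the listed members over the 6 libraries (ENSMUSG00000028289, chromosome 4 from 28740281 to 28894649). Libraries of Scx-/- held 7.33, 10.3 and 5.15 RPKM, and those of Scx+/+ 9.12, 3.85 and 9.34 RPKM. The same pair of replicates 2 stood at the ends of its range, as for Epha3. The fold change of 0.08 ± 0.38 (SE, limma, adjusted p = 0.995) moved to -0.33 without Scx+/+ replicate 2 and to -0.17 without Scx-/- replicate 2.

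Epha4, which binds ligands of both classes, varied least among the EphA receptors (ENSMUSG00000026235, chromosome 1 from 77363760 to 77511663). Its Scx-/- values were 6.16, 6.48 and 4.42 RPKM, and its Scx+/+ values 5.85, 4.93 and 5.38 RPKM. The Scx+/+ values lay inside the Scx-/- range, and the log2 fold change had a 95% interval of -0.44 to 0.57 (adjusted p = 0.991 from limma). The signs of the Epha4 and Epha7 fold changes turned with the scaling, to -0.05 and -0.03 with the median of each library set to 0.

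Ephb4, the venous receptor of ephrin-B2, was the steadier of the 2 EphB receptors measured (ENSMUSG00000029710, chromosome 5 from 137791337 to 137819897). Null embryos had 5.65, 5.50 and 4.37 RPKM, and wild-type embryos 6.22, 5.33 and 5.83 RPKM. Only Scx+/+ replicate 2 fell among the Scx-/- values, and the log2 fold change was -0.17 ± 0.21 (SE, 95% interval -0.63 to 0.30, limma, adjusted p = 0.967). With the median of each library set to 0 the genotypes no longer overlapped, at a log2 fold change of -0.28 that did not pass the test (a p of 0.163 from limma). It shares 33 nt of exon with Zan on the opposite strand, and the methods do not name a strand for the counting.

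Ephb3, a receptor that positions cells in epithelia, was the lowest member (ENSMUSG00000005958, chromosome 16 from 21204828 to 21223378). In Scx-/- it reached 0.419, 0.332 and 0.375 RPKM, and in Scx+/+ it reached 0.943, 0.195 and 0.455 RPKM. The Scx-/- values lay close together, and Scx+/+ replicates 1 and 2 held the highest and the lowest value. At 57 reads in the lowest library, counting error alone was 13.2%, and the log2 fold change of -0.23 had a 95% interval from -1.51 to 1.06 (adjusted p = 0.985 from limma).

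Ratios between members were taken within a library, where the depth and the scaling cancel. The log2 ratio of Efnb2 to Ephb4, a ligand and its receptor, stood at 0.22, -0.02 and 0.34 in the Scx-/- embryos, against 0.31, 0.60 and 0.54 in the wild type. It was lower by 0.30 in Scx-/-, with an overlap of 1 library (exact permutation test, two-sided, p = 0.2). Efna5 was set against each EphA receptor after its values had been seen. The log2 ratio of Efna5 to Epha4 was -1.44, -1.24 and -1.54 in Scx-/- and -0.78, -0.50 and -0.12 in Scx+/+, and that of Efna5 to Epha7 was -1.69, -1.92 and -1.76 against -1.42, -0.14 and -0.92. In both, the genotypes did not overlap (exact permutation test, two-sided, p = 0.1, the smallest possible, and 0.28 adjusted over the 7 ratios computed). Without Scx+/+ replicate 2 the difference of the Efna5 to Epha7 ratio was -0.62 in place of -0.97. The ratio of Efnb2 to Ephb3 differed by -0.25, with overlap. The ratios of Efna5 to Epha3, of Efna5 to Efna1 and of Efnb2 to Efnb1 were also lower on average in Scx-/-, by 1.14, 0.83 and 0.42, with overlap. These differences were -0.72 for Efna5 to Epha3 without Scx+/+ replicate 2 and -0.54 for Efna5 to Efna1 without Scx-/- replicate 1. For Efnb2 to Efnb1 the difference was -0.22 without Scx-/- replicate 1 and -0.27 without Scx+/+ replicate 2.

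**Figure D4:**
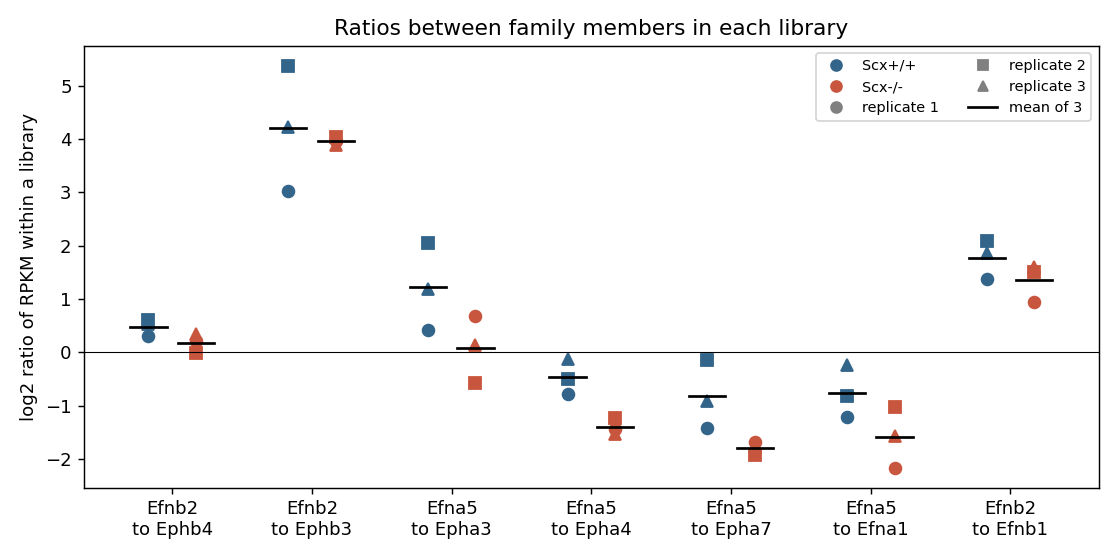
Log2 ratio of RPKM between 2 family members within each library, with 1 point per library and a bar at the mean of 3. The ratios of Efna5 to Epha4 and to Epha7 are apart between genotypes, and the other 5 overlap.

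Of the 12 further ephrins and Eph receptors, 5 are held in the table and none was called in either direction. Efnb3, a transmembrane ligand of axon guidance, was the most abundant of them at 8.01 ± 3.34 RPKM in Scx-/- against 7.33 ± 2.78 RPKM in the wild type (SD, n = 3 each). Its log2 fold change was 0.12 ± 0.36 (SE, limma, adjusted p = 0.988). Efna2, Efna4, Epha1 and Epha2 were all under 1 RPKM on average, with log2 fold changes of -0.51, 0.39, -0.04 and -0.45, and intervals that span 0.

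Intracellular partners and proteases of Eph signalling were read from a list of 39 genes, of which 37 are held in the table. Of these, 1 was higher, 0 were lower and 36 did not pass the test, a share below the 3.89% of all genes, and their median log2 fold change was 0.01. Over all genes, 2.82% were called higher. The genotypes did not overlap in 3 of the 37 partners, where the share over all genes is 9.50%. Acp1, the low molecular weight tyrosine phosphatase that acts on Eph receptors, was the 1 that rose. Libraries of Scx-/- held 16.8, 17.1 and 15.1 RPKM, and those of Scx+/+ 13.2, 12.0 and 10.9 RPKM, without overlap, at a log2 fold change of 0.44 ± 0.17 (SE, limma, adjusted p = 0.967). The call of Acp1 was lost with the replicate number as a term and without the intensity trend in the test. The most abundant partners were the adaptor Grb10 and the small GTPases Cdc42 and Rhoa, at 149, 116 and 72.4 RPKM over the 6 libraries. Their log2 fold changes were -0.02, 0.17 and 0.12, and none passed the test.

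Markers of the cell types in the dissected region were summed in each library beside the ligands that fell. The 8 markers of endothelium and endocardium summed to 121 to 141 RPKM in Scx-/- and 120 to 136 RPKM in Scx+/+, and the 7 of arterial endothelium to 64.3 to 86.2 against 65.5 to 74.4 RPKM. The 6 of venous and lymphatic endothelium summed to 14.8 to 20.2 RPKM in Scx-/- and 21.0 to 23.3 RPKM in Scx+/+, without overlap, although none of them was called. Of these 6, the genotypes were apart in 2, Nr2f2 and Nrp2, both lower in Scx-/-, and overlapped in the rest. Prox1, the highest of them on average, was 4.69 to 6.28 RPKM in Scx-/- against 4.97 to 9.13 RPKM in Scx+/+. In these 3 lists no marker was at the fill-in value and 0 of 21 were called. The arterial sum is mostly Nrp1, at 40.8 to 49.7 RPKM, which overlapped between genotypes. The other arterial markers included Dll4, a Notch ligand, at 1.11, 1.21 and 1.08 RPKM in Scx-/- against 2.03, 1.90 and 1.62 RPKM in Scx+/+, without overlap. Its log2 fold change of -0.66 ± 0.29 (SE) had an unadjusted p of 0.0509 and an adjusted p of 0.967 from limma. Gja5, Gja4, Hey1, Cxcr4 and Sox17 overlapped, with log2 fold changes from 0.14 to 0.45. Dll4 and Nrp1 were singled out after their values had been seen.

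The 6 epicardial markers summed to 29.3 to 38.0 RPKM in Scx-/- and 21.9 to 28.8 RPKM in Scx+/+, without overlap, and Tcf21 and Aldh1a2 were called higher. The sums overlapped for valve mesenchyme (10 markers, 406 to 545 against 376 to 436 RPKM), smooth muscle (5 markers, 477 to 671 against 445 to 541 RPKM) and erythroid cells (7 markers, 9510 to 14200 against 7770 to 13900 RPKM). The 10 cardiomyocyte markers ranged from 16400 to 24000 RPKM against 14700 to 26400 RPKM, and only Ryr2 was called, lower. Macrophages (6 markers, 29.2 to 49.4 against 37.4 to 41.0 RPKM), Schwann cells and neural crest glia (3 markers, 8.31 to 11 against 5.98 to 8.40 RPKM) and melanocytes (5 markers, 24.7 to 26.4 against 20.2 to 25.5 RPKM) also overlapped. The macrophage sum is mostly Lyz2, at 22.0 to 36.7 RPKM, and the melanocyte sum mostly Mitf, at 17.1 to 22.6 RPKM. Both genes overlapped between genotypes. The called markers in these lists were Cd68, Mlana and Dct, all higher. Mlana was at the fill-in value of 0.0949 RPKM in every Scx+/+ library, as was Cd68 in Scx+/+ replicate 2. Dct overlapped between genotypes. The part of any cell type in the values of Efna5 and Efnb2 was not tested.

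The genes with the pattern most like Efna5 over the 6 libraries were picked by Pearson correlation among 13817 genes outside the family with a mean of at least 1 RPKM. They were Vcpip1, Polr2a, Nr2f2, Cobll1 and Nat10, with r from 0.967 to 0.985 over 6 libraries, a description of libraries that also share depth and genotype. Polr2a, the largest subunit of RNA polymerase II, was 2.83, 3.08 and 2.0 RPKM in Scx-/- and 4.16, 3.79 and 6.61 RPKM in Scx+/+, at a log2 fold change of -0.83. It was chosen for a pattern that separates the genotypes, so this is a description. Nr2f2, a transcription factor of venous and atrial identity that is also on the venous list, was 1.17, 1.48 and 1.03 RPKM in Scx-/- and 1.72, 1.68 and 1.98 RPKM in Scx+/+. Its log2 fold change was -0.52, and those of Vcpip1, Cobll1 and Nat10 were -0.2, -0.39 and -0.32. Of the 5 genes, only Polr2a was called.

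**Figure D5:**
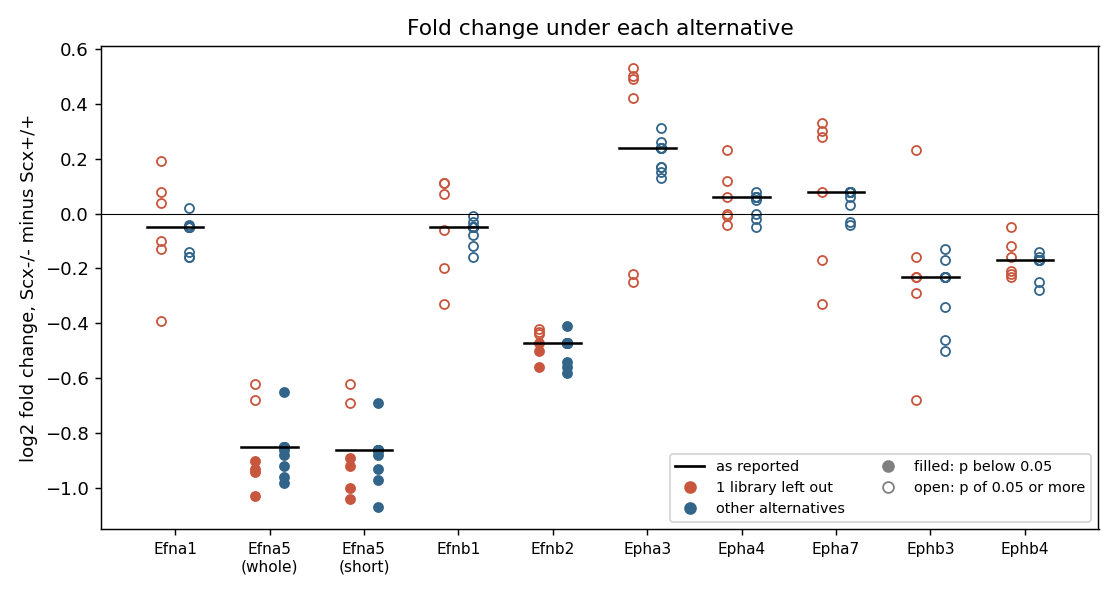
Log2 fold change of each member entry as reported (bar), with 1 library left out (red) and under the other alternatives on the log2 scale (blue), filled where the unadjusted p was below 0.05. Efna5, Efnb2 and Ephb4 stay below 0 throughout, the first 2 losing their calls in some fits (for Efnb2, 2 open points at -0.47 lie under filled ones), and every other member crosses 0.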

How the data were processed

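The authors aligned reads to mm9 with TopHat 1.4.1, counted them in Ensembl exons with easyRNASeq and deposited RPKM, filtered for low genes and with low values replaced by a common value, 0.0949 RPKM. Columns were matched to embryos by their labels. Of the 18810 identifiers, 18695 matched the mm9 GENCODE gene models. Dividing RPKM by the value of 1 read gave each library its depth and each gene its reads (98.45% to 98.57% of low values within 0.1 of a whole read). These served only to describe precision, and intervals from them cover counting error only.

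The genotype test was limma 3.58.1 (R 4.3.3), applied to log2(RPKM + 0.1) of all 18810 genes. Its variance prior followed intensity, genotype was the sole term, and p-values were adjusted by the Benjamini-Hochberg method. Calls used the cutoff of the study, an unadjusted p below 0.05. Ratios and the Efna5 stretches were compared by exact permutation of 3 libraries against 3. On simulated data of 18810 genes, 52.5% of 200 genes changed by a fold of 1.5 and 81% of those changed by a fold of 2 were called, with 5.06% and 5.14% of unchanged genes. The simulated noise was independent between genes and libraries, so differences that a library shares across genes were not simulated. The changed genes had a mean of at least 1 RPKM, a level that Ephb3 does not reach. Python 3.11.15 with pandas 2.3.3 and scipy 1.17.1 did the rest. Figures used matplotlib 3.10.9.

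All member entries, the further family members in the table, called and the 3 most abundant partners, and the 5 genes most like Efna5 are named. Other marker genes are named where they were called. The arterial markers and Prox1, Nr2f2, Nrp2, Lyz2 and Mitf were not called and are named after their values had been seen. The members and lists were chosen with earlier results of these data known. Alternatives were pseudocounts of 0.01 and 1, a mean of at least 1 RPKM, no trend, one-way ANOVA, 2 scalings, the replicate number or the sex as a term, removal of a trend on exon length and GC content, and each library left out. The ratios with Efna5 and those between ligands, the Efna5 stretches and the level order without Scx+/+ replicate 2 were added after seeing the data. Exon-level data were not analysed here.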

Additional observations from a re-analysis of the deposited data

How the results depend on the processing

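Across 17 alternatives, the whole-gene Efna5 entry and the short entry kept their direction in all and their call in 15 each, and Efnb2 kept its direction in all and its call in 12. When any 1 library was omitted, the member entries called, with both Efna5 entries counted, ranged from 0 to 3. There were 0 without Scx-/- replicate 3 and 0 without Scx+/+ replicate 3. The member entries whose genotypes did not overlap ranged from 3 to 5. Beside them, 14.1% to 27.5% of all genes did not overlap in the same sets of libraries, more than with all 6. The signalling partners called ranged from 1 to 2 and the genes called over the table from 539 to 1549, the highest without Scx+/+ replicate 2. That library had the lowest depth and the most genes at the fill-in value. The signalling partners called were 3 of 37 with one-way ANOVA on log2 RPKM, 3 on the RPKM itself, 0 without the intensity trend and 0 with the replicate block, where 4.6%, 4.51%, 3.43% and 3.05% of all genes were called, and the cause was not tested. The share of calls that were higher in Scx-/- was 72.6% as reported and 49.9%, 43.5% and 45.2% with quantile normalization, the median of each library set to 0 and the trend on length and GC content removed.

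Of the members that were not called, all but Ephb4 changed sign under some alternative without passing the test. The log2 ratio of mean RPKM of Efna1, as tested by one-way ANOVA on the RPKM, was 0.02, and Epha4 was -0.02 and Epha7 -0.04 on the log2 scale with quantile normalization, and -0.05 and -0.03 with the median set to 0. When 1 library was omitted, the log2 fold changes ran from -0.39 to 0.19 for Efna1, -0.33 to 0.11 for Efnb1, -0.25 to 0.53 for Epha3, -0.04 to 0.23 for Epha4, -0.33 to 0.33 for Epha7 and -0.68 to 0.23 for Ephb3. The labels do not say whether the replicate numbers pair the embryos. Deviations of same-numbered libraries from their genotype means correlated at 0.09, -0.22 and -0.19 across genes. Not every library correlated best with its own number, and with 3 libraries per genotype the check cannot exclude shared litters. With the replicate block, 573 genes and 2 member entries were called, both of them Efna5, and Efnb2 had a p of 0.0712 from limma. The members rest on 57 to 6845 reads per library, and counting error was largest, 13.2%, for Ephb3.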
